A study of Mus musculus with 4 samples.

Results

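Aminoacyl-tRNA synthetases were examined in Comma D beta cells, a mammary epithelial line of the mouse. The genes were chosen by symbol from the array annotation: a letter plus ars with an optional 1, 2 or l, together with Eprs, Qars, Farsa and Farsb, which gave 35 genes of 18194 with a named probe set. Of these, 19 encode cytosolic enzymes and 16 mitochondrial enzymes. Dars was not analysed here.

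There are 4 arrays, 1 for each group: untreated Sca1+ cells, untreated Sca1- cells, Sca1+ cells given doxycycline (dox) at 100 ng/ml for 1 day, and Sca1- cells given the same. Sca1 is a surface protein used to sort the cells. All 4 groups grew in the same medium with 2% serum, 5 ug/ml insulin and 10 ng/ml EGF. The series title names Bcl11b, but the labels do not say what dox controls in this line.

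A synthetase joins an amino acid to its matching tRNA, so that the ribosome can place it in a growing protein. Mammalian cells keep separate nuclear-encoded enzymes for the cytosol and for the mitochondrion for most amino acids, while Gars and Kars each encode both forms and are counted here as cytosolic. Several cytosolic enzymes (Eprs, Iars, Lars, Mars1, Qars, Rars, Kars and Dars) sit with the scaffold proteins Aimp1, Aimp2 and Eef1e1 in a multisynthetase complex. When amino acids run short or the endoplasmic reticulum is stressed, phosphorylation of eIF2 raises translation of the transcription factor ATF4, and many cytosolic synthetase genes are among its known targets, together with genes of serine synthesis and amino acid import.

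Promoter sequences of cytosolic and mitochondrial members were searched for a short motif. ATF4 binds with C/EBP-family partners to a composite element whose core reads TGATGNAA. These letters were searched on both strands of the RefSeq promoters (GRCm38.p6), from 250 bases before to 50 bases after the start site, which are given for 12 cytosolic and 14 mitochondrial members. No promoter entry was matched for Cars, Hars, Hars2, Lars, Nars, Pars2, Rars, Vars or Wars. The core was present in 5 of the 12 cytosolic promoters (Aars, Gars, Iars, Tars and Yars) and in 0 of the 14 mitochondrial genes' promoters. By comparison, 2.85% of the analysed genes with a promoter entry and 4.51% of all genes in the promoter table held it. For each of the 5 genes the match nearest the start site is printed, because this is the stretch these cytosolic genes share. Each is 30 bases on the gene's own strand, 5′ to 3′, with the core in capitals, and it reads TTNCATCA where the match is on the opposite strand:
Aars, chr8:111033840-111033869, + strand: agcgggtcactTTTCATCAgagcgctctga
Gars, chr6:55037960-55037989, + strand: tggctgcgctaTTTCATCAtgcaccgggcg
Iars, chr13:49682126-49682155, + strand: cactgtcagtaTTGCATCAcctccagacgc
Tars, chr15:11399655-11399684, - strand: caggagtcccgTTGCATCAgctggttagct
Yars, chr4:129189895-129189924, + strand: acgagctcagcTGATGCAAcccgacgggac
Counted from the start site, the first base of the core lies at -30 in Gars and at -15 in Tars, and within the transcript at 10 in Aars, 8 in Iars and 4 in Yars. A match describes the letters only, and whether a factor binds there was not measured.

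All values below are the authors' log2 levels per probe set, and a gene with several probe sets takes the value of the most intense on average. All 35 members passed the filter on low values, together with 12264 genes in all, and all 35 read above the authors' floor of 3.32 (log2 of 10) on every array. Between 44.8% and 48.0% of the probe sets lay at that floor on each array. The lowest members stood close to it, with Vars2 at 3.45 in untreated Sca1+ cells and Mars2 at 3.66 in dox Sca1+ cells. Each group is a single array, so no replicate error can be given and differences are described by size. The noise can be gauged only in part from the gap between the dox differences of the fractions. This gap also holds any true difference between them. It leaves out variation between cultures if both fractions were sorted from a shared culture, which is not stated. The median gap in size was 0.21 over the members and 0.27 over all genes analysed.

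All 7 mammary epithelial markers were above the floor on every array, with Krt14 between 11.54 and 11.92 and Cdh1 between 10.92 and 11.47. Their dox differences were mixed, with a median mean dox difference of -0.36. Of the 7, 4 were lower in both fractions, 2 of them by 2-fold or more, and 2 were higher in both. Over all genes analysed, 36.5% were lower in both fractions, 8.56% by 2-fold or more, and 41.8% were higher in both. The 2 higher markers were Krt14, with dox differences of 0.10 (Sca1+) and 0.38 (Sca1-), and Cdh1, with 0.34 and 0.15. The basal keratin gene Krt5 had dox differences of -4.00 (Sca1+) and -3.13 (Sca1-), the luminal keratin gene Krt8 -1.73 and -1.96, Epcam -1.04 and -0.76 and Krt18 0.07 and -0.79. Their part in the synthetase differences was not tested. Of 7 named markers of T cells and leukocytes, 6 were at the floor on all arrays, Ptprc and Cd3e among them; Cd8a read 3.32 and 3.32 untreated and 3.91 and 3.95 with dox. The summed linear level of those 7 ran from 70.0 to 75.5, where 70 is the sum if all lay at the floor. The 6 markers of fibroblasts and endothelium summed to between 68.9 and 85.4 against 60 at the floor, with Col1a1 and Cdh5 at the floor on all arrays. The gene for Sca1 was not analysed here, so the fractions follow their labels.

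Most cytosolic synthetases were lower with dox, and most mitochondrial ones were not. Of 19 cytosolic genes, 14 were lower with dox in both fractions and 3 were higher in both, whereas of 16 mitochondrial genes 4 were lower in both and 8 higher in both. Across all genes analysed, 36.5% were lower in both fractions and 41.8% higher in both. The median dox difference (log2) of the cytosolic genes was -0.24 in Sca1+ and -0.51 in Sca1- cells, that of the mitochondrial genes was 0.10 and 0.05, and that of all genes analysed was 0.03 and 0.02. The distance between the compartments, cytosolic minus mitochondrial median, was -0.34 in Sca1+ and -0.56 in Sca1- cells.

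Scaling of the arrays sets part of these levels. The centring tried here shifts all genes of an array alike, so it cancels in the distance between compartments and cannot test it. A scaling that varies with level was not tested. Centring each array on its median over all probe sets moved the median dox difference of all genes in Sca1+ cells to -0.16, the cytosolic median there to -0.43 and the mitochondrial one to -0.09, so that the mitochondrial direction flips in that fraction. Centring on the genes analysed moved the median of all genes there to 0.19 and the cytosolic median to -0.09. The share of the 35 members above 0 in that comparison was 45.7%, and it was 25.7% when centred on all probe sets. The number of cytosolic genes lower in both fractions was 15 and 12 under these scalings. The cytosolic enzymes also gave more intense probe sets than the mitochondrial ones, with median levels of 9.58 and 6.01. Among genes whose mean level reached 9, a limit chosen after the levels were seen, 33.1% of 1948 were lower with dox in both fractions, as were 11 of the 14 cytosolic synthetases of that level; no mitochondrial member reached it.

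**Figure D1:**
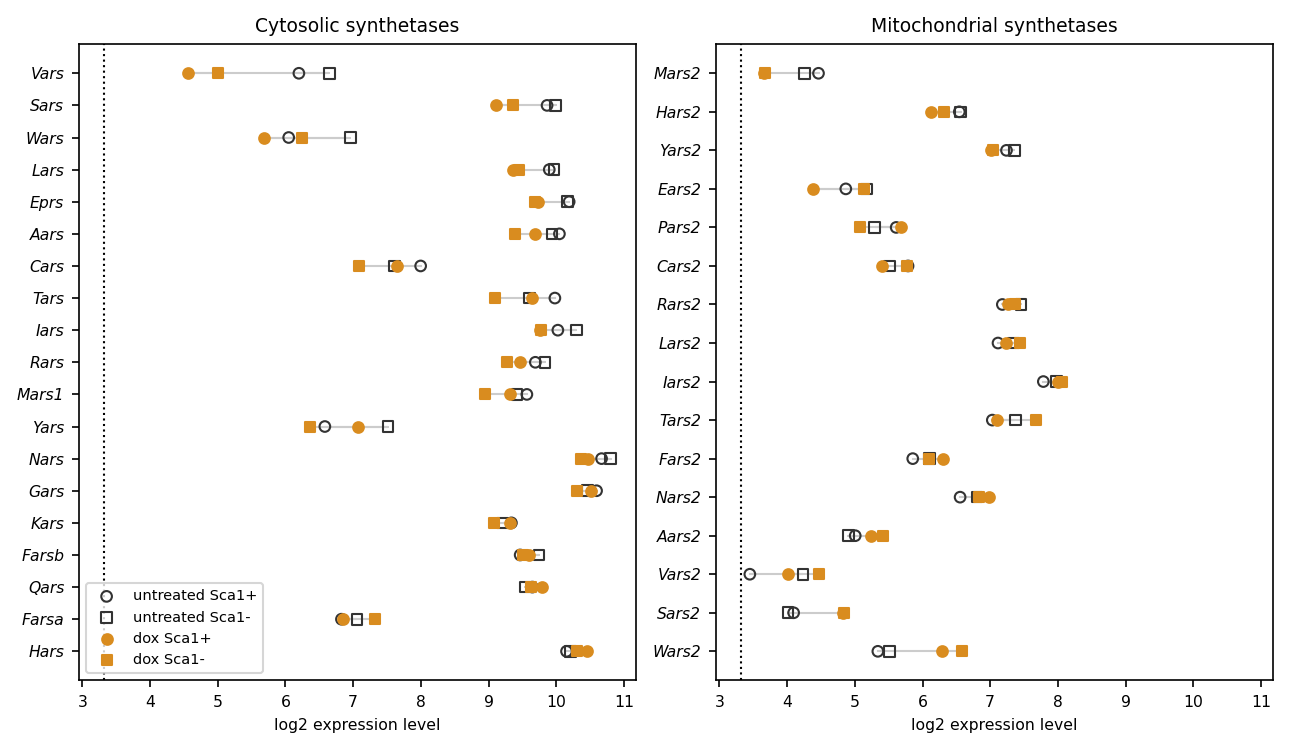
Log2 expression level (x axis) of each cytosolic (left) and mitochondrial (right) synthetase on the 4 arrays, ordered by mean dox difference from the lowest at the top; open symbols are untreated, filled symbols dox, circles Sca1+ and squares Sca1-, and the dotted line is the authors' floor. Vars at the top left has both dox arrays well below both untreated arrays, and Wars2 at the bottom right has both above; levels of different genes come from different probes and are not to be compared.

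Most single differences were small. At 2-fold or more in both fractions, 1 cytosolic gene (Vars) was lower and 0 of 35 members were higher, against 8.56% and 5.29% of all genes analysed, so the count of large differences was below the background. Within Sca1+ cells alone, 1 member was 2-fold lower and 0 were higher, against 12.9% and 8.47% of all genes. Within Sca1- cells alone, 2 (Vars and Yars) were lower and 1 (Wars2) was higher, against 11.3% and 7.2%. At 1.5-fold in both fractions, Vars and Sars were lower and Sars2 and Wars2 higher, 2 genes each way, against 15% and 11.8%. Both dox arrays read lower than both untreated arrays for 9 of 19 cytosolic genes (Aars, Eprs, Iars, Lars, Mars1, Nars, Rars, Sars and Vars) and 3 of 16 mitochondrial genes (Hars2, Mars2 and Yars2), where 29.1% of all genes did so. Both read higher for 1 cytosolic gene (Hars) and for 5 mitochondrial genes (Aars2, Iars2, Nars2, Sars2 and Wars2), where 35.2% of all genes did so. An additive limma fit on the 4 arrays (dox and Sca1 fraction, with Benjamini-Hochberg adjustment over 12264 genes) treats the fractions as replicates; whether they were sorted from a shared culture is not stated. At an adjusted p under 0.05 it called 2 cytosolic genes lower and 0 higher, and 1 mitochondrial gene lower and 2 higher, against 14.8% of all genes called lower and 11.9% higher. At an unadjusted p under 0.05 it had 6 cytosolic genes lower and 0 higher and 1 mitochondrial gene lower and 2 higher, against 21.5% and 20.7% of all genes.

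Vars, the cytosolic valine enzyme, had the largest difference of the members. Its level was 6.20 in untreated Sca1+ and 6.65 in untreated Sca1- cells, and 4.56 and 5.00 with dox. Both dox arrays lie far below both untreated arrays. The fold was 3.12 in Sca1+ and 3.14 in Sca1- cells, and the limma fit gave -1.65 with a standard error of 0.16 (adjusted p = 0.0087). Vars is read by a single probe set. Sars, the serine enzyme, read 9.86 and 9.99 in untreated Sca1+ and Sca1- cells and 9.11 and 9.36 with dox (limma -0.69, standard error 0.16, adjusted p = 0.042). Its groups do not overlap, and its other probe set gave a mean dox difference of -0.62 against -0.69.

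Wars, Lars and Eprs followed in size. Wars, the tryptophan enzyme, whose human counterpart is known as an interferon-induced gene, read 6.05 and 6.96 untreated and 5.69 and 6.25 with dox in Sca1+ and Sca1- cells. It is lower with dox within each fraction, but its groups overlap because Sca1- cells read higher than Sca1+ cells under both treatments. By contrast, 6 of 8 interferon-stimulated genes were higher by 2-fold or more under dox in both fractions, against 5.29% of all genes analysed. The median of the 8 was 2.15, with Ifit1 and Oasl2 at means of 2.71 and 2.73 and Ifit3 at -0.72. Lars, the leucine enzyme, which also takes part in sensing leucine for mTORC1, read 9.90 and 9.97 untreated and 9.36 and 9.44 with dox, with nearly equal differences of -0.54 and -0.52. Eprs, the bifunctional glutamate and proline enzyme, read 10.19 and 10.17 untreated and 9.73 and 9.68 with dox. Neither gene's groups overlap, and the limma adjusted p was 0.095 for Wars, 0.073 for Lars and 0.095 for Eprs.

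A further 7 cytosolic enzymes had mean dox differences between -0.45 and -0.32: Aars (alanine, -0.45), Cars (cysteine, -0.43), Tars (threonine, -0.43), Iars (isoleucine, -0.39), Rars (arginine, -0.39), Mars1 (methionine, -0.36) and Nars (asparagine, -0.32). In each of them the dox difference was nearer 0 in Sca1+ cells (from -0.35 to -0.19) than in Sca1- cells (from -0.56 to -0.44). This order depends on the scaling: centred on all probe sets, 4 of the 7 lay further from 0 in Sca1+ cells (Aars -0.55 against -0.51, Cars -0.53 against -0.48, Tars -0.53 against -0.47, and Mars1 by the least), and the cytosolic medians of the fractions were -0.43 and -0.47. A probe set annotated to both Aars and its neighbour Exosc6 was not used for either gene. It went the other way, by 0.59 in Sca1+ and 0.63 in Sca1- cells.

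The remaining cytosolic enzymes differed little. Gars (glycine) and Kars (lysine), the enzymes with cytosolic and mitochondrial forms, had mean dox differences of -0.12 and -0.07. Farsa and Farsb, the subunits of the phenylalanine enzyme, stood at 0.14 and -0.05, Qars (glutamine) at 0.12 and Hars (histidine) at 0.20. Kars and Farsb flip in sign when the arrays are centred on the genes analysed. Among the genes with a core match in the promoter, the mean dox differences were -0.45 for Aars, -0.43 for Tars, -0.39 for Iars, -0.33 for Yars and -0.12 for Gars. Among those with a promoter but no match they were -0.69 for Sars, -0.47 for Eprs, -0.36 for Mars1 and -0.07 for Kars. In the same group Farsb stood at -0.05, Qars at 0.12 and Farsa at 0.14. The Yars mean joins opposite dox differences, 0.49 in Sca1+ and -1.16 in Sca1- cells.

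**Figure D2:**
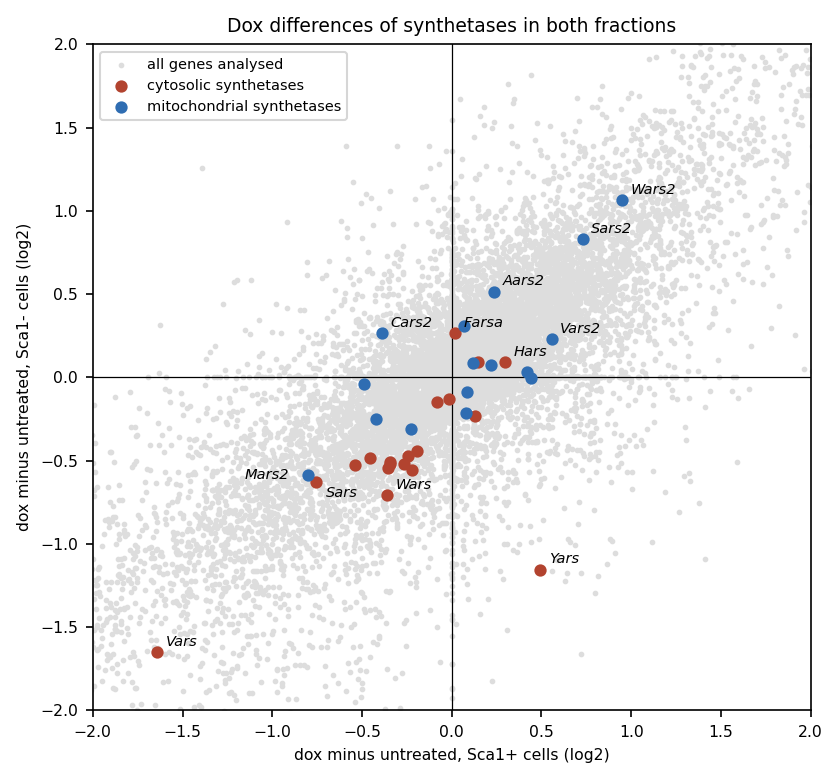
Dox minus untreated difference (log2) in Sca1+ cells (x axis) against Sca1- cells (y axis) for cytosolic synthetases (red), mitochondrial synthetases (blue) and all genes analysed (grey); genes past 2 in size on either axis are outside the frame. Of 19 red points 14 lie below 0 on both axes and of 16 blue points 8 lie above 0 on both; Yars lies apart at 0.49 and -1.16.

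Members of the multisynthetase complex and free cytosolic enzymes had alike median mean dox differences, -0.39 over 7 genes and -0.38 over 12. Of the 7, 6 were lower in both fractions; Qars was higher in both. The scaffold genes did not share this direction: Aimp1 stood at 0.02, Aimp2 at -0.18 and Eef1e1 at 0.38 (mean dox difference, log2). By catalytic class, the median was -0.39 over 9 class I enzymes and -0.12 over 9 class II enzymes, with the bifunctional Eprs in neither list.

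Mitochondrial enzymes were led by Wars2 and Sars2, both higher with dox. Wars2, the mitochondrial tryptophan enzyme, read 5.34 and 5.51 in untreated Sca1+ and Sca1- cells and 6.29 and 6.58 with dox, a 1.93-fold and a 2.09-fold difference (limma 1.01, standard error 0.16, adjusted p = 0.019). Its second probe set gave a mean dox difference of 1.00. Sars2, the serine enzyme, read 4.10 and 4.01 untreated and 4.83 and 4.84 with dox (limma 0.78, standard error 0.16, adjusted p = 0.032). Both genes have both dox arrays above both untreated arrays, but Sars2 lies near the floor, and setting linear levels under 20 to 20 lowered its mean dox difference to 0.51.

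Mars2, the methionine enzyme, was the mitochondrial member furthest in the other direction. It read 4.46 and 4.26 untreated and 3.66 and 3.67 with dox (limma -0.69, standard error 0.17, adjusted p = 0.046). All these levels are close to the floor, and with levels under 20 set to 20 the mean dox difference was -0.07. Vars2 (valine) read 3.45 and 4.24 untreated and 4.01 and 4.47 with dox, and Aars2 (alanine) read 5.01 and 4.91 untreated and 5.24 and 5.42 with dox. The Vars2 groups overlap and those of Aars2 do not. For Vars2, the raised floor brought the mean dox difference from 0.39 to 0.07.

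The other mitochondrial enzymes had mean dox differences between -0.34 and 0.23. Nars2 (asparagine, 0.23), Fars2 (phenylalanine, 0.22), Tars2 (threonine, 0.19), Iars2 (isoleucine, 0.15) and Lars2 (leucine, 0.10) were above 0, and Rars2 (arginine) stood at -0.00. Cars2 (cysteine, -0.06), Pars2 (proline, -0.07), Ears2 (glutamate, -0.27), Yars2 (tyrosine, -0.27) and Hars2 (histidine, -0.34) were below it. Cars2 went from 5.79 to 5.40 with dox in Sca1+ cells and from 5.51 to 5.77 in Sca1- cells. Centring on the genes analysed flipped the sign of Rars2, Cars2 and Pars2.

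Set side by side by amino acid, the compartments differed most for valine, tryptophan and serine. Under the naming rule, there are 13 amino acids with a single measured gene of each compartment. In 9 of the 13 the cytosolic gene had the lower dox difference in both fractions, and in 8 (valine, tryptophan, serine, alanine, leucine, threonine, asparagine and isoleucine) the cytosolic gene was below 0 and the mitochondrial gene above 0 in both. The median of the cytosolic minus mitochondrial mean dox difference was -0.54, and it was -2.04 for valine, -1.54 for tryptophan and -1.47 for serine. Methionine (0.34) and histidine (0.53) ran the other way, with Mars2 and Hars2 lower than their cytosolic counterparts. Both exceptions are limited. Mars2 lies close to the floor, and its difference shrank when the floor was raised, as given above. The other Hars2 probe set gave a mean dox difference of 0.13, against -0.34 for the one used.

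**Figure D3:**
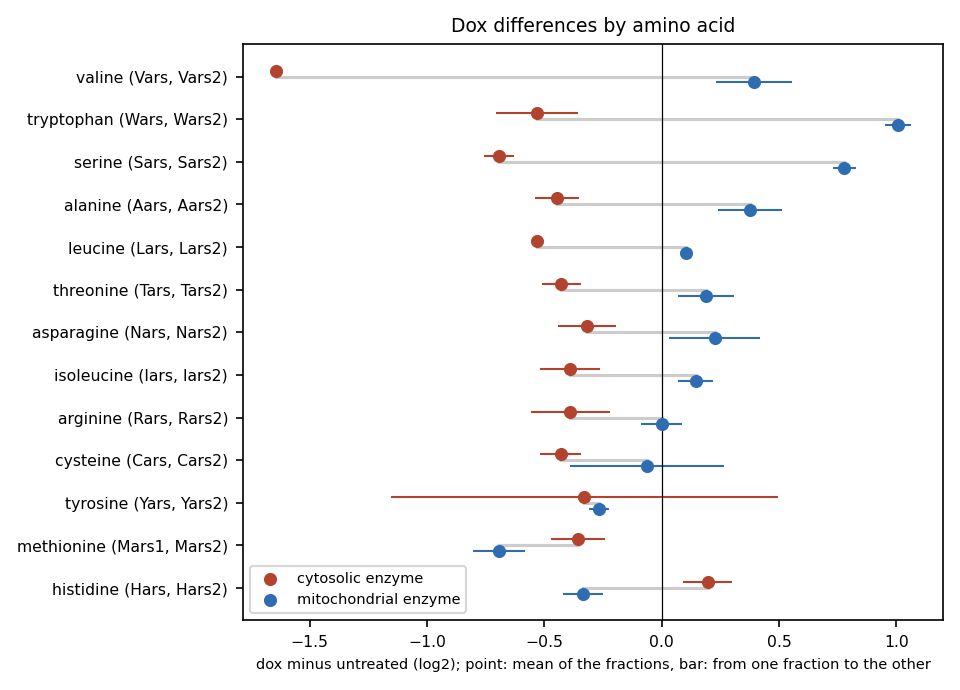
Dox minus untreated difference (log2, x axis) of the cytosolic (red) and mitochondrial (blue) enzyme for 13 amino acids; points are the mean of the Sca1+ and Sca1- differences and bars run from one fraction to the other. Valine, at the top, has the widest distance (-2.04). Methionine and histidine, at the bottom, have the mitochondrial enzyme lower by the probe sets used, with Mars2 close to the floor.

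Most cytosolic genes with several probe sets above the floor had the same direction in all of them. Vars, Lars, Rars, Mars1, Tars, Yars, Gars and Kars have a single probe set and could not be checked. Of 72 probe sets for the 35 genes, 36 cytosolic and 23 mitochondrial ones lay above the floor on all arrays. Among them 30 of 36 cytosolic probe sets had a mean dox difference below 0 (median -0.35), as did 10 of 23 mitochondrial ones (median 0.05). Probe sets of the same gene are counted separately here. Counted by gene, 5719 of all 12264 genes analysed had a mean dox difference below 0. Of 10 cytosolic genes with several probe sets above the floor on all arrays, 8 had the same sign throughout (Farsb and Qars did not). The 4 Eprs probe sets ran from -0.47 to -0.27 and the 4 Wars probe sets from -0.91 to -0.12. Of 6 mitochondrial genes with several, only Wars2 had the same sign throughout, and Hars2 stood at -0.34 by the probe set used and 0.13 by the other.

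**Figure D4:**
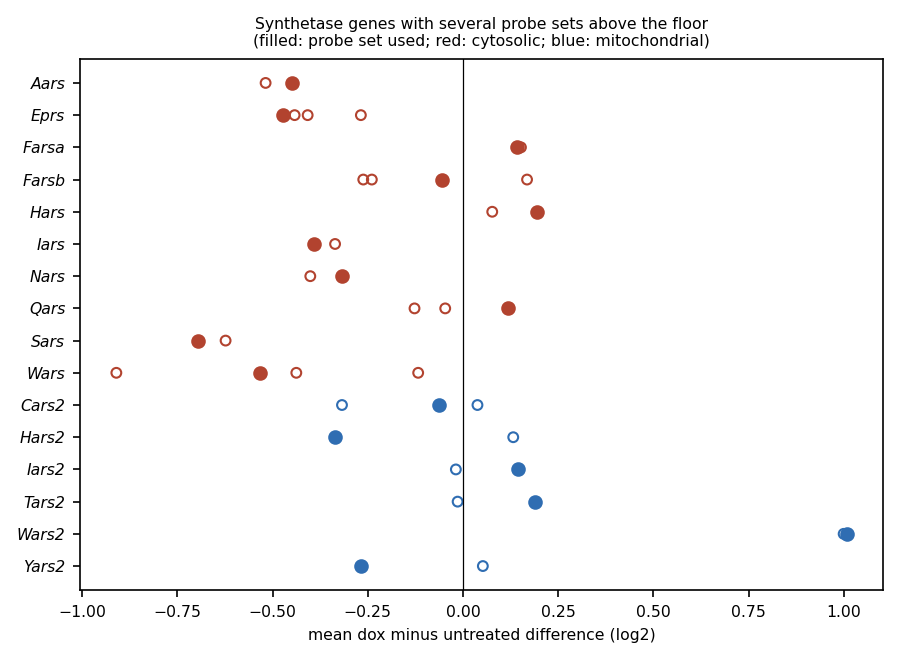
Mean dox minus untreated difference (log2, x axis) of each probe set above the floor on all arrays, for the 16 synthetase genes with several of them; filled points are the probe sets used in the text, red is cytosolic and blue mitochondrial. Probe sets of Sars, Eprs, Aars, Iars and Nars stay left of 0, those of Wars2 lie together near 1.00, and those of Hars2 fall on both sides.

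Other genes of the amino acid response governed by ATF4 had a median dox difference further from 0 than that of the cytosolic synthetases. This list was chosen with earlier results of these data known. Of 21 genes, 9 were lower by 2-fold or more in both fractions and 0 were higher, against 8.56% and 5.29% of all genes analysed. The median mean dox difference of the list was -1.01 against -0.39 for the cytosolic synthetases. Pck2, the mitochondrial phosphoenolpyruvate carboxykinase, stood at -3.32, Cth, the cystathionine lyase, at -3.05, the transcription factor gene Cebpb at -2.83 and the serine synthesis gene Psat1 at -2.64. Atf4 itself read 10.80 and 10.48 untreated and 10.14 and 9.82 with dox. Asns, the asparagine synthetase and a well-known ATF4 target, was at -0.41. The lists overlap: 14 of the 21 genes lay within the range of the cytosolic synthetases (-1.65 to 0.20), and 2, Ddit3 (-0.19) and Psph (-0.34), lay nearer 0 than the cytosolic median. Among the kinases that phosphorylate eIF2, Eif2ak4, the sensor of uncharged tRNA (GCN2), stood at -0.92 and Eif2ak3 (PERK) at 0.94, with Eif2ak2 at 0.46 and Eif2ak1 at 0.16.

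Genes that work beside the synthetases moved less uniformly. The 10 other genes of tRNA charging and proofreading had a median mean dox difference of -0.27. Of these, 1 was lower by 2-fold or more in each fraction and 0 were higher, against 8.56% and 5.29% of all genes analysed. That gene was Dtd1, which removes D-amino acids from tRNA; it read 8.00 and 8.15 untreated and 5.67 and 6.18 with dox. Aarsd1, which hydrolyses mischarged tRNA, stood at -0.82, Pstk, a kinase of selenocysteine tRNA synthesis, at -0.67, and Tarsl2, a threonyl-tRNA synthetase paralogue outside the naming rule, at -0.45. The 4 cytosolic elongation factor genes had a median of 0.01 and the 8 mitochondrial translation factor genes one of 0.11, with 0 of either list 2-fold different in both fractions. Among the latter Mtrf1l stood at -0.52, Tsfm at -0.41, Tufm at 0.30 and Mtif2 at 0.18.

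Proliferation genes differed along with the synthetases and by more. The 9 G2/M genes had median dox differences of -0.83 in Sca1+ and -2.80 in Sca1- cells, and the 10 S-phase genes of -1.09 and -1.93. In both fractions at once, 4 G2/M and 6 S-phase genes were lower by 2-fold or more, against 8.56% of all genes analysed. Within Sca1+ cells alone the counts were also 4 and 6, against 12.9%. Within Sca1- cells alone they were 9 and 8, against 11.3%. What the proliferation genes contribute to the synthetase differences was not tested.

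Between the Sca1 fractions, 0 of 35 members were 2-fold different in the same direction without and with dox, where 0.881% of all genes analysed were lower and 1.08% higher in Sca1+ cells. At either treatment alone 0 members were 2-fold different, against 3.33% lower and 3.07% higher without dox and 2.98% and 2.52% with dox. At 1.5-fold, Wars, Yars and Vars2 were lower without dox (3 members, against 9.02% of all genes) and 0 members higher (against 8.47%). With dox, Ears2 was lower (1 member, against 8.99%) and Yars and Pars2 higher (2 members, against 6.89%). Without dox 11 of 19 cytosolic and 11 of 16 mitochondrial genes were lower in Sca1+ cells, with medians of -0.07 and -0.19. With dox 6 and 13 were, with medians of 0.15 and -0.14. Over all 12264 genes analysed, 6311 were lower in Sca1+ cells without dox and 6663 with dox, with medians of -0.01 and -0.03. Centring on all probe sets turned the cytosolic and mitochondrial medians without dox above 0 (0.15 and 0.04). The share of members higher in Sca1+ cells without dox went from 37.1% to 62.9%. With dox that share was 45.7%, and 65.7% when centred on the genes analysed. In the same direction both times, 8 cytosolic genes were higher and 6 lower in Sca1+ cells, and 1 mitochondrial gene was higher and 9 lower; over all genes 24.4% were higher and 34.6% lower.

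Wars had the largest mean Sca1 difference in size among the cytosolic members (-0.74), at -0.91 without dox and -0.56 with dox (Sca1+ minus Sca1-), from the levels given above. Cars read 8.00 in untreated Sca1+ against 7.61 in untreated Sca1- cells, and 7.65 against 7.09 with dox. Tars read 9.98 against 9.60 and 9.64 against 9.09. Both were thus higher in Sca1+ cells under both treatments, as were Aars, Gars, Kars, Mars1, Eprs and Qars by smaller amounts. For Eprs and Qars the mean over all probe sets of the gene had the other sign (-0.13 and -0.03). Among the mitochondrial members Vars2 was lower in Sca1+ cells, by the levels given above, and Ears2 was too, at 4.87 against 5.17 without dox and 4.37 against 5.13 with dox. Pars2 was higher in Sca1+ cells, at 5.61 against 5.29 and 5.69 against 5.08. All 3 lie at low levels. The G2/M genes, for comparison, were higher in Sca1+ cells by a median of 1.32 without and 2.84 with dox.

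**Figure D5:**
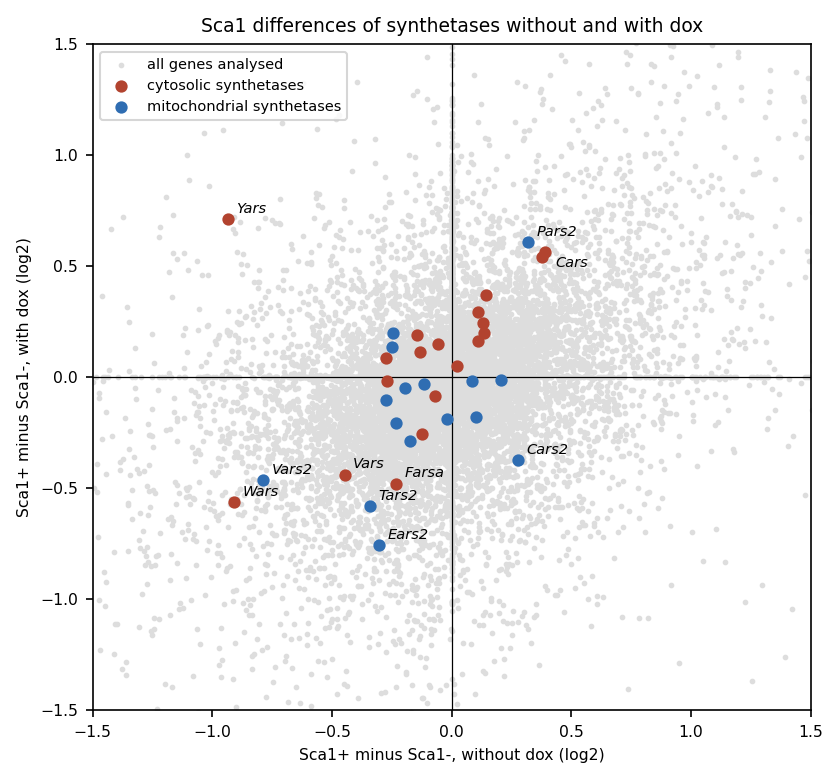
Sca1+ minus Sca1- difference (log2) without dox (x axis) against with dox (y axis) for cytosolic (red) and mitochondrial (blue) synthetases and all genes analysed (grey); genes past 1.5 in size on either axis are outside the frame. Wars and Vars2 lie to the lower left, Cars and Pars2 to the upper right, and Yars alone among the members lies far into the upper left, at -0.94 and 0.71.

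Yars, the cytosolic tyrosine enzyme, had no common direction. It read 6.58 in untreated Sca1+, 7.52 in untreated Sca1-, 7.08 in dox Sca1+ and 6.36 in dox Sca1- cells. The dox difference was 0.49 in Sca1+ and -1.16 in Sca1- cells, a gap of 1.65 where the median gap of the members was 0.21. Yars is read by a single probe set, and its limma standard error of 0.42 was the widest of the members.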

How the data were processed

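RNA from 4 sorted fractions was labelled for 3' expression arrays, 1 array per group. The authors deposited log2 levels per probe set with a floor at 3.32, per the values of the deposited table; their summarization and scaling: not given in the sources used here. Of 45101 probe sets, 34958 have 1 gene symbol in the platform annotation, 932 several and 9211 none; only the first kind was used. Each gene took the probe set with the highest mean. Genes were analysed if any array reached the median over all probe sets and arrays (3.63).

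Differences of log2 levels were computed as deposited, with Python 3.11.15 (numpy 2.4.6, pandas 2.3.3, matplotlib 3.10.9). The additive limma 3.58.1 fit (R 4.3.3) had 1 residual degree of freedom and was tested on simulated data. The simulated noise was independent between arrays and of the same size for all genes. It therefore could not test the effect of a shared culture or of noise that varies with level. The members and lists were chosen with earlier results of these data known. Values on all arrays are given for members 2-fold different with dox in both fractions, the 5 cytosolic and 5 mitochondrial genes with the largest mean dox difference and the 3 of each with the largest Sca1 difference. Of related lists at most 4 genes with the largest mean dox difference are named; Atf4, Asns, Ddit3, Psph, Ifit3, Krt14, Cdh1, Yars and Cars2 were singled out after their values were seen, as were the markers of other cell types. Alternatives covered the probe set rule, filters, floor, centring, size rule, the enzymes of both compartments and the limma fit. Protein sequence motifs were not analysed here. Some items are not reported here.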

Additional observations from a re-analysis of the deposited data

Results flagged for a closer look

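Yars was the member whose 2 dox differences ran in opposite directions by the most, 0.49 in Sca1+ and -1.16 in Sca1- cells. Seen across the fractions, the same 4 arrays give a Sca1+ minus Sca1- difference of -0.94 without dox and 0.71 with dox, so both are 1 pattern. The difference between the fractions was not tested, since each group is 1 array, and a single probe set reads the gene. Over all genes analysed, 2.48% had opposite dox differences past 0.28 (log2) in size, and 4.02% had opposite Sca1 differences past it. That cut is smaller than any of the Yars differences, so these shares do not describe patterns as large as that of Yars.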

How the results depend on the processing

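With 1 array per group no replicate could be left out. The labels give no replicate numbers; the only pairing is by Sca1 fraction, which the within-fraction differences and the additive limma fit already use. Of 206 alternative values for medians, distances and counts, 179 stayed within the spread or within 1.5 times the count, 23 moved and 4 reversed. Of the 206, 52 could not change because the filter removes no member, and 12 because centring cancels in a distance between compartments. For single genes 461 of 470 stayed within the spread (140 could not change), yet 22 small differences changed sign. Centring on all probe sets gave a cytosolic dox median in Sca1+ cells of -0.43 and a mitochondrial one of -0.090 (reversed), Sca1 medians without dox of 0.15 and 0.039 (both reversed), 1 cytosolic gene higher with dox in both fractions and 5 mitochondrial genes lower in Sca1+ cells both times. Centring on the genes analysed gave dox medians in Sca1+ cells of -0.087 and 0.26, Sca1 medians with dox of 0.25 and -0.035, 1 mitochondrial gene higher by 2-fold or more under dox in each fraction and 3 mitochondrial genes higher in Sca1+ cells both times. Averaging all probe sets of a gene gave a mitochondrial Sca1 median without dox of -0.10, a distance between compartments there of -0.025 (reversed) and a distance of mean dox medians of -0.44. Keeping genes that reach a linear level of 100 left 6 mitochondrial genes, with a Sca1 median with dox of -0.077, distances of 0.23 with dox and 0.18 on average, 1 lower and 4 higher with dox in both fractions, and 5 lower and 0 higher in Sca1+ cells both times; the cause is the smaller list. At 1.5-fold, 2 cytosolic genes were lower and 2 mitochondrial genes higher with dox; the limma fit called 2 cytosolic genes lower, 1 mitochondrial gene lower and 2 mitochondrial genes higher. The cause of the other shifts was not tested. Signal near the floor limits Mars2, Sars2 and Vars2.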
